A study of Mus musculus with 12 samples.

Results

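The NADPH oxidase and antioxidant genes described here are 10 genes chosen by name: Nox4, Cyba, Sod1, Sod2, Sod3, Cat, Gpx1, Gpx3, Hmox1 and Txnrd1. All 10 were among the 54352 gene symbols counted, and all 10 passed the filter on low counts in every comparison. RNA was measured in primary fibroblasts of the aortic adventitia (the connective tissue layer around the vessel), grown from the aorta of WT C57Bl/6 mice whose labelled age was 14 weeks. The 4 groups of 3 libraries each (12 in all) were ascending control, ascending TGFβ, descending control and descending TGFβ, where TGFβ cells received 10 ng/mL of mouse TGFβ for 48 h and control cells its solute. The ascending dissection also took the aortic root, all cultures had been passaged before treatment, and the sources differ on the age and on the number of passages. They do not say which libraries came from separate animals, so the p-values below measure the spread between these libraries, which may be technical.

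NADPH oxidases pass electrons from NADPH to oxygen. Nox4 is the isoform best known from fibroblasts, where TGFβ is a known inducer, and it releases mainly hydrogen peroxide while bound to p22phox, the product of Cyba. Superoxide dismutases turn superoxide into hydrogen peroxide in the cytosol (Sod1), in mitochondria (Sod2) and outside the cell (Sod3), and catalase and the glutathione peroxidases remove the peroxide. Hmox1 and Txnrd1 are widely used readouts of NRF2, the transcription factor that binds antioxidant response elements (ARE).

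Libraries held 16250126 to 23892943 counts, and a floor of 3 counts lay between 0.117 and 0.207 normalized CPM (counts scaled to the library size with TMM). This floor accounts for counting error alone, because amplified reads are not independent molecules. Descending control replicate 3 stood apart: 13031 genes had a count in it against 19337 to 20931 in the other 11 libraries, and 11% of its counts were mitochondrial against 0.703 to 1.03%. Results of the members that rest on it are given with and without it. The 5 fibroblast markers were counted in every library, with a summed level of 10360 to 23110 normalized CPM. Col1a1 and Col1a2 made up most of this sum and were called higher with TGFβ at both sites. The other markers of this list, Pdgfra, Dcn and Lum, were called lower at both. The endothelial markers summed to at most 1.898, with Tie1 and Emcn at or below the floor throughout. The smooth muscle markers summed to 136.7 to 342.8 and the Schwann markers to 10.77 to 25.94. Macrophage markers summed to 343 in ascending control replicate 2 and to 14.8 to 58.3 in the other 11 libraries.

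Promoters are shown for Nox4, which had the largest response, for Txnrd1 and Sod1, which were the members with an ARE core among those searched, and for Cat, whose response was opposite to that of Nox4. Of the 10 members, 8 (all but Sod3 and Hmox1) had a promoter entry in RefSeq (GRCm38.p6). Txnrd1 had 3, which makes 10 promoters. In each, the 250 bases before the start were searched on both strands, and the bases that lie in no annotated exon (GENCODE vM21) are printed 5′ to 3′ with 2 motifs in capitals: the ARE core TGACNNNGC and the GC box GGGCGG.
Nox4, chr7:87246399-87246648, + strand: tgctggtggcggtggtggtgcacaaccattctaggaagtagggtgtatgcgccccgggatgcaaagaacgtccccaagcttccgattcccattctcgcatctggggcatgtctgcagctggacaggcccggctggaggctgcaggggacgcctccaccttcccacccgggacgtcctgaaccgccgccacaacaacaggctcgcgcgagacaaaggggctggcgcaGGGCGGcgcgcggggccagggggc
Txnrd1, chr10:82859009-82859178, + strand: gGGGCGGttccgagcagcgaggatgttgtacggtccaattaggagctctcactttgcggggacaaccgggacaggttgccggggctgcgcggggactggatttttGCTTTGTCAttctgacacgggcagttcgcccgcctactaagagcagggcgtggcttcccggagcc
Sod1, chr16:90220512-90220753, + strand: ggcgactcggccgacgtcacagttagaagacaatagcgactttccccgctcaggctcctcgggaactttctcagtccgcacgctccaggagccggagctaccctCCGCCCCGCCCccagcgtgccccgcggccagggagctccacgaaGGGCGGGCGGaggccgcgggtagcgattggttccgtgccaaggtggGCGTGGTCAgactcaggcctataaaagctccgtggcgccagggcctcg
Cat, chr2:103485161-103485403, - strand: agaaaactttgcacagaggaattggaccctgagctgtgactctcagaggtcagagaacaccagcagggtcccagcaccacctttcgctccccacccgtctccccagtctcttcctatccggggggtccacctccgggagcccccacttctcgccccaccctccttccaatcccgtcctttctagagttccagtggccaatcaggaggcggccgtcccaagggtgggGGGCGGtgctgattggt
The Nox4 and Txnrd1 windows lie within the annotated span of their genes, which begins upstream of them. The ARE core lay on the minus strand in both promoters that held it, as TGACAAAGC 92 bases before the start in Txnrd1 and as TGACCACGC 56 bases before it in Sod1. It was present in 10.2% of the 32851 promoters searched. The GC box was present in 7 of the 10 member promoters searched against 32.7% of all promoters. The SMAD palindrome GTCTAGAC (0.167% of all promoters), the paired SMAD box (0.0731%) and the AP-1 letters TGANTCA (6.75%) were in none of the member promoters searched. TATAAA was in that of Sod1 and in 12.4% of all. A match describes these letters only.

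The first question was how these genes responded to TGFβ at each site. In ascending fibroblasts Nox4, Hmox1 and Txnrd1 rose and Cyba, Sod1 and Cat fell, while Sod2, Sod3, Gpx1 and Gpx3 did not pass the test. With upper-quartile scaling Sod2, Sod3 and Gpx1 were also called lower. That scaling moved the log2 fold changes of all genes by a median of -0.06. In one fit of all 12 libraries only Nox4 and Txnrd1 of the first 6 were called. That fit called 2338 genes in all, against 7767 in the fit of the ascending groups alone. In the latter, the 3 members in each direction stand beside 28.2% of all 13917 genes tested called higher and 27.6% called lower. The share of members called was thus close to that of all genes. The median log2 fold change of the members was -0.06 and that of all genes tested 0.00. In descending fibroblasts only Nox4 and Txnrd1 passed with the 3 control libraries, where 3.59% of 13825 genes were called higher and 4.48% lower, and the medians were 0.35 and 0.02. Without descending control replicate 3, 7 of 10 passed: Nox4, Sod3, Gpx1, Hmox1 and Txnrd1 were higher and Cat and Gpx3 lower, beside 26.6% and 26.3% of 14311 genes. The medians were then 0.10 and -0.01.

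**Figure D1:**
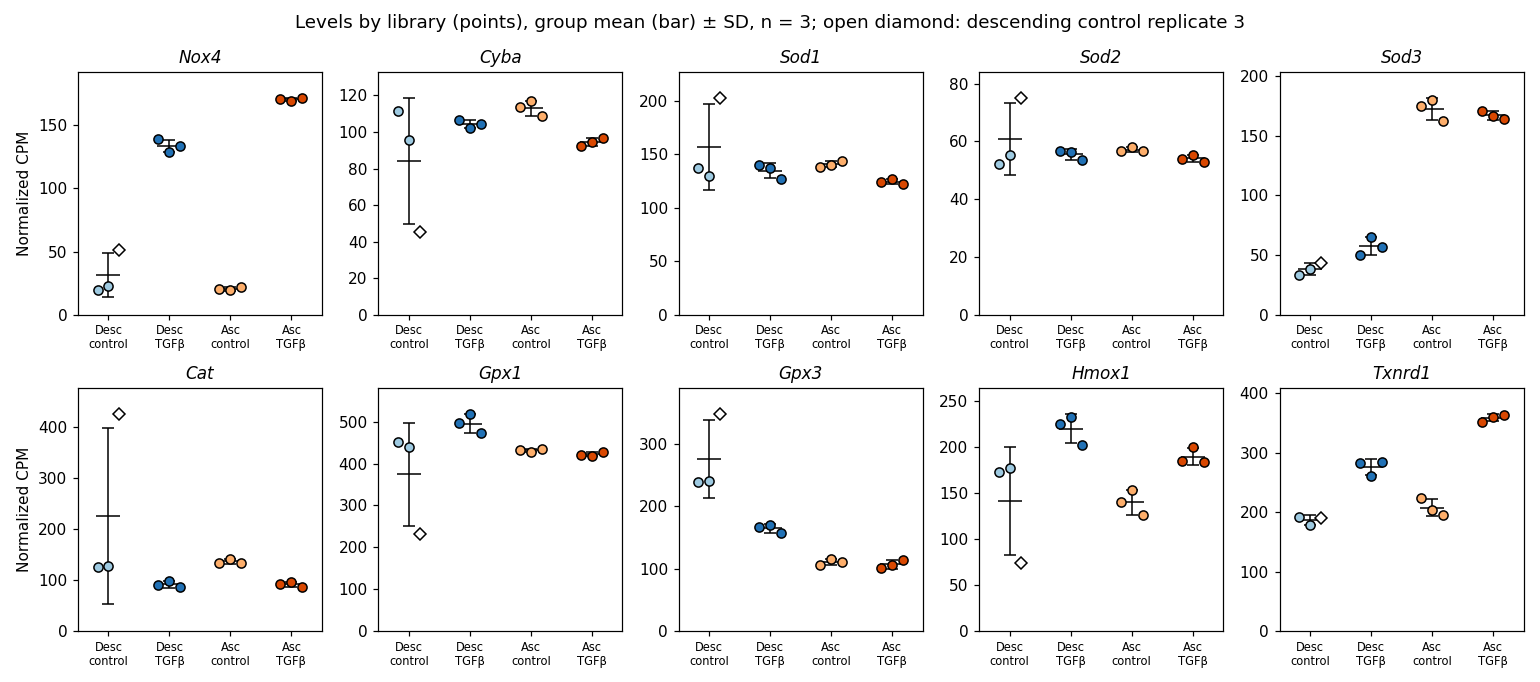
Normalized CPM of the 10 members in each library, by group, on linear axes from 0. Points are libraries, horizontal bars are group means with SD (n = 3), and the open diamond is descending control replicate 3. Nox4 separated every TGFβ library from every control library at both sites, and Sod3 separated the sites under both treatments.

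Nox4 (chr7:87246096-87398710, + strand, GRCm38) encodes the catalytic subunit. Its level was 20.3, 19.2 and 22.0 normalized CPM in the ascending control libraries and 171, 169 and 171.5 with TGFβ. In descending fibroblasts it was 19.7, 23.1 and 51.4 in control libraries and 139, 129 and 134 with TGFβ. No control library overlapped a TGFβ library at either site, and the third descending control library was the only one of the 6 controls above 23.1. The ascending change was 3.05 ± 0.05 on the log2 scale (8.28-fold, adjusted p = 2.8e-17, edgeR quasi-likelihood F-test). The descending change was 2.08 ± 0.39 (adjusted p = 0.0298) with all libraries and 2.65 ± 0.07 (adjusted p = 2.48e-23) without control replicate 3. Leaving out any 1 of the other 5 descending libraries gave 1.84 to 2.12 with an adjusted p of 0.0762 to 0.135.

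Between sites, Nox4 was not distinguishable in control libraries: ascending against descending gave -0.61 ± 0.39 (adjusted p = 0.526), and -0.05 ± 0.09 (adjusted p = 0.734; 95% interval -0.24 to 0.15) without descending replicate 3. With TGFβ it was higher in ascending fibroblasts by 0.35 ± 0.04 (adjusted p = 4.01e-08), and the 3 ascending libraries lay above all 3 descending ones.

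Cyba (chr8:122424776-122432930, - strand) encodes p22phox, which Nox4 needs for activity. It did not rise with Nox4. Its level was 109 to 117 normalized CPM in ascending controls and 92.3 to 96.5 in ascending TGFβ libraries, a change of -0.27 ± 0.04 (adjusted p = 3.91e-05) with no overlap between the groups. In descending fibroblasts it was 111, 95.8 and 45.2 in control and 102 to 106 with TGFβ. The change was 0.30 ± 0.32 (adjusted p = 0.618), and 0.01 ± 0.06 (adjusted p = 0.872) without control replicate 3, with a 95% interval of -0.11 to 0.13. With TGFβ Cyba was lower in ascending than in descending libraries (-0.14 ± 0.04, adjusted p = 0.00944). Without ascending TGFβ replicate 1 that difference was -0.13 with an adjusted p of 0.0541. In control libraries the site difference was 0.43 ± 0.32 (adjusted p = 0.573), and 0.14 ± 0.06 (adjusted p = 0.122) without descending replicate 3. Of the 50-base sequences in Cyba exons, 2.39% also occur in other genes.

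Levels were also scaled per kilobase of exon, counting all annotated exon bases of a gene (8471 for Nox4 and 1039 for Cyba). The transcripts in use may be shorter, so comparisons between genes on this scale depend on those lengths. On it, the ratio of the Nox4 level to the Cyba level was 0.0202 to 0.0296 in 5 of the 6 control libraries. In descending control replicate 3 the ratio was 0.14. With TGFβ it was 0.155 to 0.16 in descending and 0.218 to 0.227 in ascending libraries. The Cyba transcript thus stayed above the Nox4 transcript per kilobase in each of the 12 libraries. Protein was not measured.

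**Figure D2:**
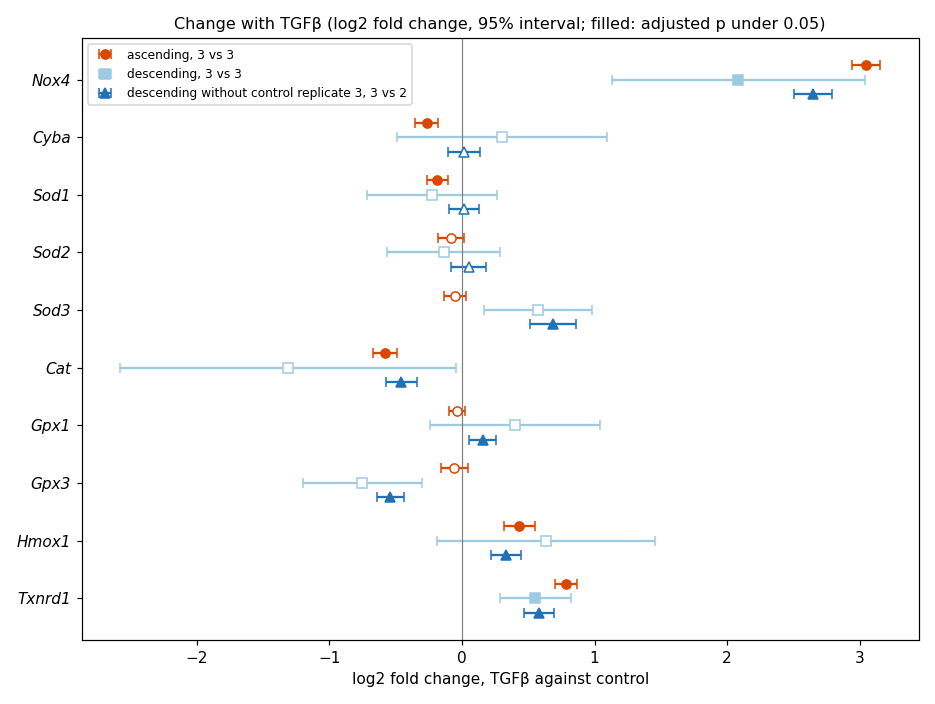
Log2 fold change of each member with TGFβ against control (x axis) in ascending fibroblasts (circles), in descending fibroblasts (squares) and in descending fibroblasts without control replicate 3 (triangles). Bars are 95% intervals and filled symbols had an adjusted p under 0.05. Nox4 lay farthest to the right in all 3 fits, and the intervals of the squares were wide.

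Sod3 (chr5:52363791-52371418, + strand), the secreted superoxide dismutase, was the member with the largest difference between sites. Its level was 175, 180.2 and 163 normalized CPM in ascending controls and 33.1, 38.4 and 43.6 in descending control libraries. With TGFβ it was 171, 166 and 164 in ascending and 50.2, 65.4 and 56.5 in descending libraries. All 6 ascending libraries lay above all 6 descending ones. Ascending exceeded descending controls by 2.17 ± 0.15 on the log2 scale (adjusted p = 0.00351), and by 2.29 ± 0.07 (adjusted p = 1.99e-11) without descending control replicate 3. In TGFβ libraries the difference was 1.55 ± 0.06 (adjusted p = 7.56e-19).

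TGFβ left Sod3 at -0.05 ± 0.04 (adjusted p = 0.286; 95% interval -0.14 to 0.03) in ascending fibroblasts. In descending fibroblasts the change was 0.57 ± 0.17 (adjusted p = 0.103), although the 3 TGFβ libraries lay above the 3 controls, and 0.69 ± 0.08 (adjusted p = 5.86e-08) without control replicate 3. Sod3 and Gpx3 were the members called between control libraries, 1 higher and 1 lower in ascending fibroblasts, beside 1.19% of 14090 genes called higher and 1.47% called lower. Without descending control replicate 3, Txnrd1 was also called higher and Hmox1 lower, beside 16.4% and 15.2% of 14644 genes.

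The other superoxide dismutases moved little. Sod1 (chr16:90220754-90226329, + strand), whose promoter carries the ARE core and TATAAA, was at 139 to 144 normalized CPM in ascending controls and 122 to 127 in ascending TGFβ libraries, a change of -0.19 ± 0.04 (adjusted p = 0.000349). In descending fibroblasts it was at 129.7 to 203 in control and 127 to 139.9 with TGFβ, and the change was -0.22 ± 0.20 (adjusted p = 0.549), or 0.02 ± 0.05 (adjusted p = 0.836) without control replicate 3. Under TGFβ it was lower in ascending libraries (-0.11 ± 0.04, adjusted p = 0.0422). Leaving out any 1 library but descending TGFβ replicate 3 ended that call, with an adjusted p of up to 0.165.

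Sod2 (chr17:13006846-13040063, + strand), the mitochondrial enzyme, lay between 52.2 and 58.1 normalized CPM in 11 libraries and at 75.1 in descending control replicate 3. It passed the test in none of the comparisons, with log2 differences of -0.14 to 0.05 in the fits with all libraries. The ascending TGFβ change of -0.08 ± 0.05 had a 95% interval of -0.18 to 0.02. Of the 50-base sequences in its exons 21% occur in another gene, mostly AC166110.4, so its counts may be split. For Sod1 the share was 3.42%.

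As a share of the 3 superoxide dismutases per kilobase, Sod3 made up 52.8% ± 1.68 (SD, n = 3) of the summed level in ascending control libraries and 54.9% ± 0.569 in those with TGFβ. In descending libraries it made up 18.7% ± 2.32 in control (19.7% without control replicate 3) and 27.9% ± 2.89 with TGFβ. Its share was 50.9% or more in each ascending and 30.3% or less in each descending library. On this scale Sod1 had the highest level of the 3 in each descending library and Sod3 in each ascending one. The divisor counts all annotated exon bases (3970 for Sod1, 10008 for Sod2 and 3738 for Sod3). The transcripts in use may be shorter, so these shares and ranks depend on it.

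**Figure D3:**
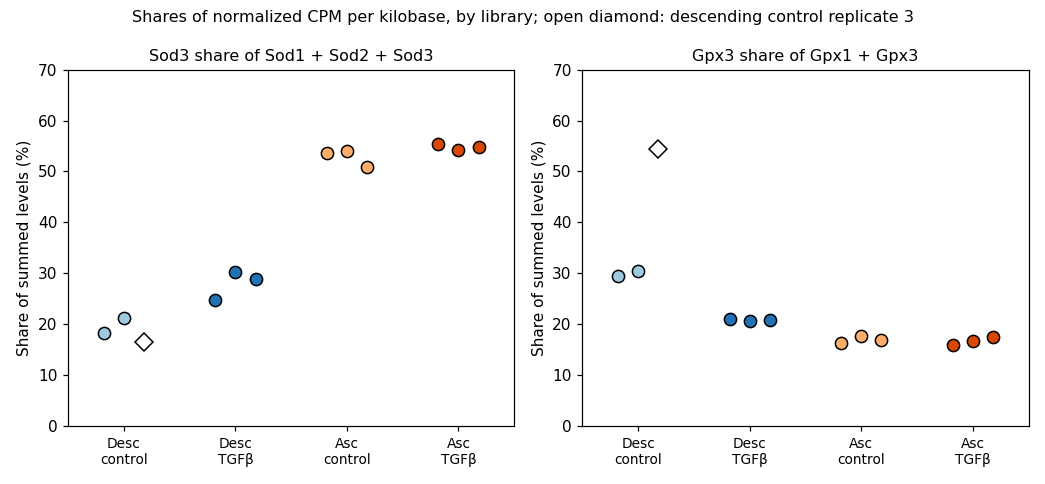
Share (%) of Sod3 in the summed level of Sod1, Sod2 and Sod3 (left) and of Gpx3 in that of Gpx1 and Gpx3 (right), from normalized CPM per kilobase of exon, by group. Points are libraries, and the open diamond is descending control replicate 3. The Sod3 share was 50.9 to 55.4% in ascending and 16.6 to 30.3% in descending libraries.

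Cat (chr2:103453849-103485160, - strand) encodes catalase, the peroxisomal enzyme that splits hydrogen peroxide. It fell with TGFβ in ascending fibroblasts, and in descending ones once control replicate 3 was left out. In ascending libraries its level was 134, 142 and 134 normalized CPM in control and 91.5, 95.8 and 87.4 with TGFβ. In descending libraries it was 125, 127 and 426 in control and 90.8, 98.9 and 85.6 with TGFβ. No TGFβ library reached a control library of its site, and descending control replicate 3 was far above all others. The ascending change was -0.58 ± 0.04 (adjusted p = 5.19e-09). The descending change was -1.31 ± 0.52 (adjusted p = 0.199) with all libraries and -0.46 ± 0.06 (adjusted p = 6.88e-08) without control replicate 3. The ascending against descending difference was 0.00 ± 0.05 (95% interval -0.10 to 0.10, adjusted p = 0.988) with TGFβ. In control libraries it was -0.73 ± 0.51 (adjusted p = 0.555), or 0.13 ± 0.05 (adjusted p = 0.0557) without descending replicate 3.

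Gpx3 (chr11:54902453-54910377, + strand) encodes the secreted glutathione peroxidase and showed the reverse site pattern of Sod3. Its level was 238.2, 241 and 347 normalized CPM in descending control and 106, 116 and 110.2 in ascending control libraries. With TGFβ it was 167, 169.7 and 157 in descending and 100.5, 105 and 114 in ascending libraries. Every descending library lay above every ascending one. Ascending controls were lower than descending controls (-1.31 ± 0.19, adjusted p = 0.0251), with -1.10 ± 0.05 (adjusted p = 6.17e-10) without descending replicate 3. Leaving out any 1 of the other 5 libraries gave -1.40 to -1.28 with an adjusted p of 0.0697 to 0.203. In TGFβ libraries the difference was -0.62 ± 0.05 (adjusted p = 5.63e-12).

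The TGFβ change of Gpx3 was -0.06 ± 0.05 (adjusted p = 0.335; 95% interval -0.16 to 0.05) in ascending fibroblasts. In descending fibroblasts it was -0.75 ± 0.18 (adjusted p = 0.0642), and -0.54 ± 0.05 (adjusted p = 2.46e-10) without control replicate 3. The descending groups did not overlap.

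Gpx1 (chr9:108338903-108340343, + strand), the cytosolic and mitochondrial glutathione peroxidase, had the highest mean level per kilobase of the 10 members in every group, at up to 344 normalized CPM per kilobase. In descending control replicate 3, however, Gpx3 (192) and Cat (163) lay above Gpx1 (160). Unscaled for length Gpx1 was 427 to 435 in ascending control, 419 to 427 in ascending TGFβ and 472 to 518 in descending TGFβ libraries. The descending control libraries were at 452, 439 and 231. The TGFβ change was -0.04 ± 0.03 (adjusted p = 0.288) in ascending fibroblasts. In descending fibroblasts it was 0.40 ± 0.26 (adjusted p = 0.415), or 0.16 ± 0.05 (adjusted p = 0.00931) without control replicate 3. With TGFβ Gpx1 was lower in ascending libraries (-0.23 ± 0.04, adjusted p = 1.5e-05). In control libraries the difference was 0.21 ± 0.26 (adjusted p = 0.71), or -0.03 ± 0.04 (adjusted p = 0.535) without descending replicate 3. The share of Gpx3 in the summed per-kilobase level of both was 16.9% ± 0.726 in ascending control libraries and 16.7% ± 0.789 in those with TGFβ. It was 38.1% ± 14.2 in descending control (29.9% without replicate 3) and 20.9% ± 0.221 in descending TGFβ libraries.

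**Figure D4:**
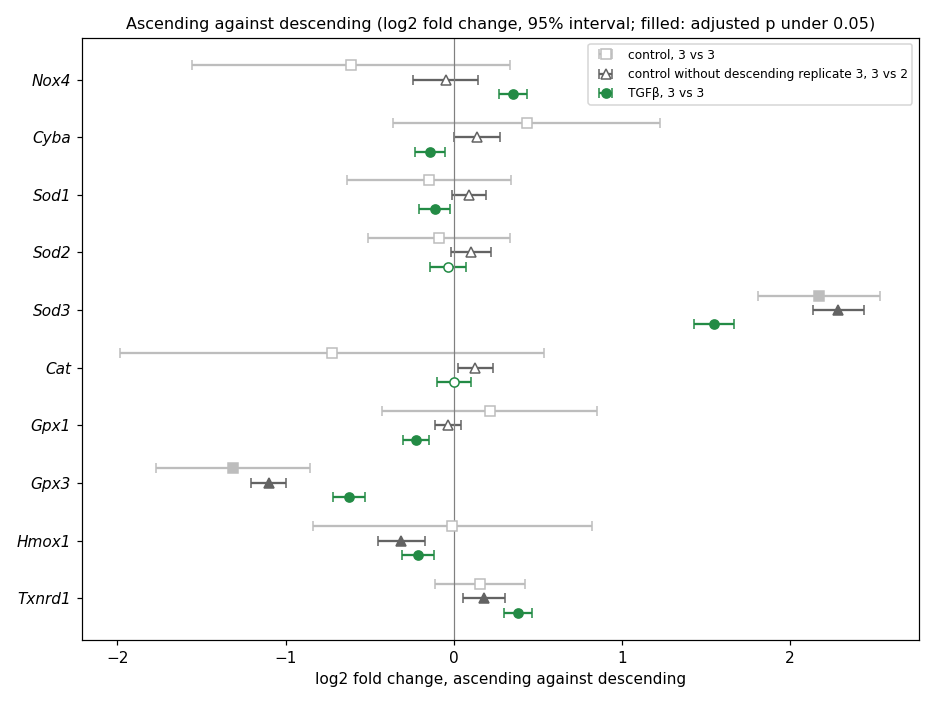
Log2 fold change of each member in ascending against descending fibroblasts (x axis), in control libraries (squares), in control libraries without descending replicate 3 (triangles) and in TGFβ libraries (circles). Bars are 95% intervals and filled symbols had an adjusted p under 0.05. Sod3 lay to the right of 0 and Gpx3 to the left in all 3 fits.

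Txnrd1 (chr10:82833951-82897712, + strand) encodes cytosolic thioredoxin reductase. Of its 3 promoters searched, only the promoter shown above holds the ARE core. Txnrd1 rose at both sites. Its level was 223, 204 and 196 normalized CPM in ascending controls and 353, 361 and 364 in ascending TGFβ libraries. In descending libraries it was 192, 178 and 191 in control and 283, 260.3 and 284 with TGFβ. No groups overlapped, and it was the 1 member whose level in descending control replicate 3 lay between those of the other controls of that group. The ascending change was 0.78 ± 0.04 (1.72-fold, adjusted p = 4.33e-11). The descending change was 0.55 ± 0.11 (adjusted p = 0.034), and 0.58 ± 0.05 (adjusted p = 2.53e-10) without control replicate 3. Leaving out any 1 of the other 5 descending libraries gave 0.52 to 0.61 with an adjusted p of 0.103 to 0.204. With TGFβ it was higher in ascending libraries by 0.38 ± 0.04 (adjusted p = 5.04e-09). In control libraries the difference was 0.16 ± 0.11 (adjusted p = 0.552), or 0.18 ± 0.06 (adjusted p = 0.0277) without descending replicate 3.

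Hmox1 (chr8:75093621-75100589, + strand) encodes heme oxygenase 1, which breaks down heme. Its level was 141, 153 and 126 normalized CPM in ascending controls and 185, 200.0 and 184 in ascending TGFβ libraries. In descending libraries it was 173, 177 and 73.6 in control and 225, 233 and 202 with TGFβ. All TGFβ libraries lay above all controls of their site. The ascending change was 0.43 ± 0.06 (adjusted p = 4.56e-06). The descending change was 0.63 ± 0.34 (adjusted p = 0.322), and 0.33 ± 0.06 (adjusted p = 9.71e-06) without control replicate 3. Hmox1 is also strongly expressed by macrophages, and the highest of the 3 ascending controls was replicate 2, the library with the macrophage signal, whose part in this level was not tested. With TGFβ Hmox1 was lower in ascending libraries (-0.21 ± 0.05, adjusted p = 0.000574). In control libraries the site difference was -0.01 ± 0.34 (adjusted p = 0.992), and -0.31 ± 0.07 (adjusted p = 0.00232) without descending replicate 3.

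Across the site comparison under TGFβ, 3 members were called higher in ascending fibroblasts (Nox4, Sod3 and Txnrd1) and 5 lower (Cyba, Sod1, Gpx1, Gpx3 and Hmox1). In one fit of all 12 libraries only Sod3, Gpx3 and Txnrd1 of these 8 were called. That fit called 1106 genes in all, against 4963 in the fit of the TGFβ groups alone. Of all 13678 genes tested in the latter, 18.1% were called higher and 18.2% lower. The median log2 fold change was -0.07 over the members and 0.00 over all genes tested.

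The study also asks whether the response to TGFβ itself differs between sites, which is the interaction of site and treatment. With all 12 libraries none of the 10 members was called by edgeR, where 0.321% of 14637 genes were called higher (a more positive change in ascending fibroblasts) and 0.485% lower. At an unadjusted p under 0.05 there were 3, Nox4, Sod3 and Gpx3. DESeq2 called 1, Sod3, and limma voom with sample quality weights called 5, Nox4, Cyba, Sod3, Gpx1 and Gpx3. Over all genes DESeq2 called 497 and limma voom 1979, against 118 with edgeR. Without descending control replicate 3 edgeR called 7, beside 6.07% of 15013 genes higher and 7.40% lower. The response was more positive in ascending fibroblasts for Nox4 (0.41 ± 0.09, adjusted p = 0.00201), Gpx3 (0.49 ± 0.07, adjusted p = 1.88e-05) and Txnrd1 (0.21 ± 0.07, adjusted p = 0.0437). It was more negative for Sod3 (-0.73 ± 0.10, adjusted p = 1.1e-05), Cyba (-0.27 ± 0.07, adjusted p = 0.0127), Sod1 (-0.20 ± 0.06, adjusted p = 0.0416) and Gpx1 (-0.19 ± 0.05, adjusted p = 0.019). Sod2, Cat and Hmox1 were not called. These calls and sizes hold with that library left out. With all 12 libraries the Nox4 value was 0.96 ± 0.40 (adjusted p = 0.447), that of Gpx3 0.69 ± 0.19 (adjusted p = 0.176) and that of Txnrd1 0.23 ± 0.11 (adjusted p = 0.511). The Sod3 value was then -0.63 ± 0.17 (adjusted p = 0.155), that of Cyba -0.57 ± 0.35 (adjusted p = 0.574) and that of Gpx1 -0.44 ± 0.28 (adjusted p = 0.581). Sod1 changed sign between the fits and was at 0.03 ± 0.20 (adjusted p = 0.938) with all libraries. Among the 7 members called without it, keeping descending control replicate 3 thus moved the values of Nox4, Cyba and Gpx1 by more than 1.5 times. The values of Sod2, Cat and Hmox1, which were not called, changed sign. Without that library they were -0.13, -0.12 and 0.11.

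Ordered by level per kilobase, the ascending control libraries ran from Gpx1 (299 normalized CPM per kilobase) through Cyba, Hmox1, Gpx3, Cat, Sod3, Sod1, Txnrd1 and Sod2 (5.71) to Nox4 (2.42 ± 0.166, SD, n = 3), and no neighbours in this order overlapped. With TGFβ the ascending level of Nox4 was 20.1 ± 0.125 per kilobase, above Sod2 at 5.41 and below Sod1 at 31.3. In descending TGFβ libraries Nox4 (15.8 ± 0.579) and Sod3 (15.3 ± 2.05) overlapped. The order of genes depends on the exon bases counted for each.

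Other genes of these systems were taken from 5 lists holding 49 genes in all. In ascending fibroblasts 41 of them were tested, of which 12 rose and 12 fell with TGFβ, where 28.2% of all genes tested rose and 27.6% fell. In descending fibroblasts 38 were tested, of which Slc7a11 and Nqo1 rose and Glrx and Fth1 fell, where 3.59% of all genes rose and 4.48% fell. Without control replicate 3, 13 of 41 rose and 10 fell, beside 26.6% and 26.3% of all genes. Between control libraries none of the 41 tested was called, beside 1.19% of all genes higher and 1.47% lower in ascending fibroblasts. With descending replicate 3 left out it was 8 higher and 8 lower of 43, beside 16.4% and 15.2%. Between TGFβ libraries 8 of 39 were higher in ascending fibroblasts and 11 lower, beside 18.1% and 18.2% of all genes. In the interaction 1 of 41 was called, Nqo1, in the lower direction that held 0.485% of all genes. Of 43 genes 7 were called lower without descending control replicate 3, beside 7.40% of all genes. These counts describe the lists, and nothing particular to them is read from the shares.

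Among the oxidase subunits, Cybb, the catalytic subunit of the phagocyte oxidase, was at 1.30, 11.6 and 1.75 normalized CPM in ascending controls and 0.940, 0.379 and 0.487 in ascending TGFβ libraries. Its change was -3.02 ± 0.70 (adjusted p = 0.00155), and -1.35 (adjusted p = 0.00662) without control replicate 2, the library with the macrophage signal, in which Lyz2 was at 292 against 38.9 and 42.4 in the other ascending controls. All 6 macrophage markers also fell in ascending fibroblasts, and their part in the Cybb value was not tested. Of the other catalytic subunits, the change of Duox1, a calcium-activated peroxide-producing oxidase, was 0.33 ± 0.43 (adjusted p = 0.546) in ascending fibroblasts. Its descending change was 1.42 (95% interval -1.30 to 4.15, adjusted p = 0.493), or 0.87 ± 0.24 (adjusted p = 0.00328) without control replicate 3. Between TGFβ libraries Duox1 was lower in ascending fibroblasts (-1.56 ± 0.26, adjusted p = 1.25e-05), a call lost with the 12 libraries in one fit (adjusted p = 0.479). Duox2 had too few counts to be tested. Poldip2, a Nox4-binding protein, rose by 0.26 ± 0.05 (adjusted p = 0.000221) in ascending fibroblasts. In descending fibroblasts its change was 0.52 ± 0.30 (adjusted p = 0.366), or 0.24 ± 0.06 (adjusted p = 0.00231) without control replicate 3. Rac1, the GTPase of other NADPH oxidases, changed by -0.07 ± 0.03 (adjusted p = 0.0417) in ascending fibroblasts, and this call was lost in 5 of the 6 fits that left out 1 library (adjusted p up to 0.153). Cybc1, the chaperone of the phagocyte oxidase, was at 0.00 ± 0.05 (adjusted p = 0.999).

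Of the 10 other peroxide-removing enzymes and the SOD chaperone, Gpx7, Gpx8, Prdx3 and Prdx6 rose and Gpx4 and Prdx5 fell in ascending fibroblasts, where 28.2% of all genes rose and 27.6% fell. Prdx6, a peroxiredoxin that repairs membrane lipids, rose by 0.46 ± 0.04 (adjusted p = 3.33e-08). Its descending change was 1.06 ± 0.28 (adjusted p = 0.0786), or 0.80 ± 0.05 (adjusted p = 1.59e-14) without control replicate 3. Gpx4, which reduces lipid peroxides, fell by 0.12 ± 0.03 (adjusted p = 0.00324) in ascending fibroblasts. Prdx1, a cytosolic peroxiredoxin, was at 0.05 ± 0.04 (adjusted p = 0.29) in ascending fibroblasts. In descending fibroblasts it was called lower without control replicate 3. Between TGFβ libraries it was called higher in ascending fibroblasts, with an adjusted p of up to 0.0575 when 1 library was left out.

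Of the 12 thioredoxin and glutathione genes, Txn1, Txn2, Gclc, Gsr and Slc7a11 rose and Txnip, Glrx and G6pdx fell in ascending fibroblasts, beside the same 28.2% and 27.6% of all genes. Txn1, the thioredoxin that Txnrd1 reduces, rose by 0.27 ± 0.03 (adjusted p = 3.29e-06), and Txnip, which binds and inhibits thioredoxin, fell by 0.93 ± 0.05 (adjusted p = 3.67e-11). Gclc, the catalytic subunit of the first enzyme of glutathione synthesis, rose by 0.49 ± 0.05 (adjusted p = 6e-07), while its modifier subunit Gclm was at 0.07 ± 0.05 (adjusted p = 0.219). Slc7a11, the cystine importer, rose by 0.47 ± 0.10 (adjusted p = 0.00105) in ascending and 1.18 ± 0.15 (adjusted p = 0.01) in descending fibroblasts, the latter 1.23 ± 0.12 without control replicate 3. The descending call was lost without control replicate 2 and without each of the 3 TGFβ libraries (adjusted p up to 0.0924). G6pdx, which supplies NADPH, fell by 0.64 ± 0.04 (adjusted p = 1.3e-09) in ascending fibroblasts. Srxn1, which repairs oxidized peroxiredoxins, was at 0.01 ± 0.05 (adjusted p = 0.909).

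Of the 11 genes of NRF2 and of heme and metal handling, 10 were tested in ascending fibroblasts. Nqo1 and Sqstm1 rose and Nfe2l2, Keap1, Blvrb, Fth1 and Mt1 fell, again beside 28.2% and 27.6% of all genes. Nfe2l2, which encodes NRF2, fell by 0.18 ± 0.04 (adjusted p = 0.00213). Nqo1, a quinone reductase and NRF2 target, was at 27.8, 26.7 and 26.9 normalized CPM in ascending controls and 30.6, 30.3 and 29.7 in ascending TGFβ libraries, a change of 0.15 ± 0.06 (adjusted p = 0.0307), a call lost without control replicates 2 or 3 or TGFβ replicates 1 or 2 (adjusted p up to 0.102). In descending libraries it was at 42.6, 38.6 and 33.8 in control and 79.0, 93.0 and 76.5 with TGFβ, a change of 1.10 ± 0.15 (adjusted p = 0.0106), which was lost without control replicate 2 or any of the 3 TGFβ libraries (adjusted p up to 0.0776). Without control replicate 3 it was 1.03 ± 0.07 (adjusted p = 7.3e-13). Its descending TGFβ libraries lay above all others. Its interaction value was -0.96 ± 0.15 (adjusted p = 0.0182), and it was lost (adjusted p up to 0.0778) when any ascending library or descending TGFβ replicate 1 or 2 was left out. It was -0.88 ± 0.10 (adjusted p = 1.03e-06) without descending control replicate 3. Fth1, the ferritin heavy chain that stores iron, fell by 0.58 ± 0.05 (adjusted p = 2.15e-08) in ascending fibroblasts. The descending level fell by 0.85 ± 0.14 (adjusted p = 0.0198), a call lost without any 1 library but control replicate 3 (adjusted p up to 0.136), and without that library it fell by 0.71 ± 0.05 (adjusted p = 1.07e-13). The light chain gene Ftl1 was at 0.01 ± 0.06 (adjusted p = 0.856) in ascending fibroblasts. Sqstm1, an autophagy receptor that binds KEAP1, rose by 0.38 ± 0.03 (adjusted p = 2.18e-08).

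**Figure D5:**
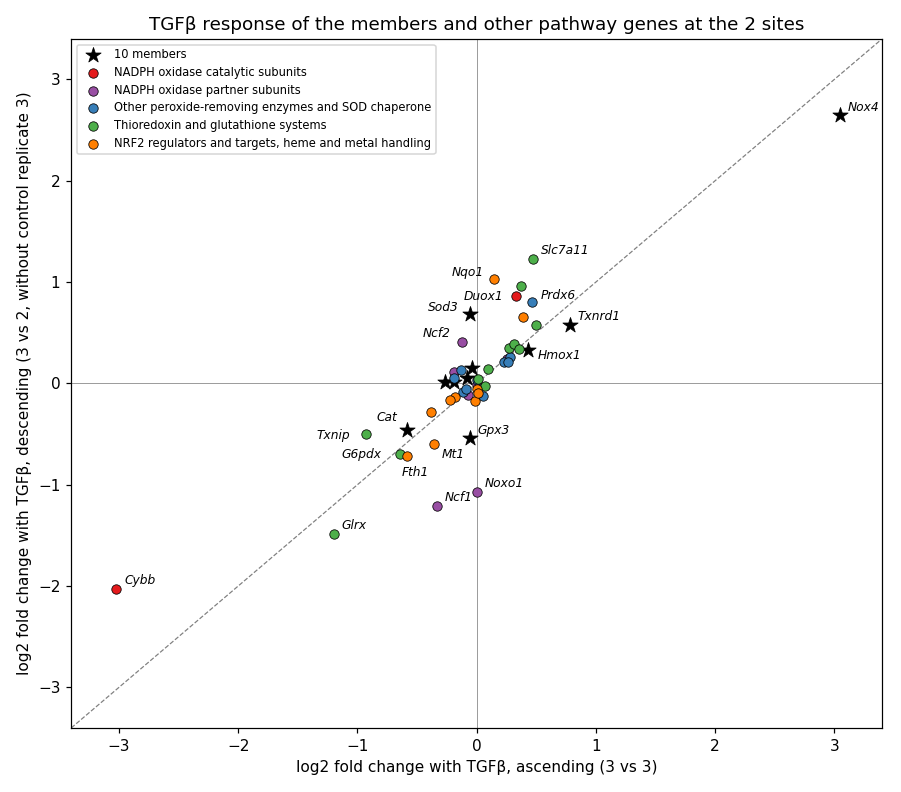
Log2 fold change with TGFβ in ascending (x axis, 3 against 3 libraries) and in descending fibroblasts (y axis, 3 against 2, without control replicate 3) for the 10 members (stars) and the tested genes of the 5 lists (circles, coloured by list). The dashed line marks equal changes. Nox4 stands at the upper right, Cybb at the lower left, and Nqo1 and Slc7a11 above the line.

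As a description of expression patterns, the genes whose log2 level followed that of Nox4 most closely over the 12 libraries, among 12708 genes with a mean of at least 1 normalized CPM, were Fam98a (Pearson's r = 0.997), Cct3 (0.993), Msn (0.992), Ptgs2 (0.991) and Stt3a (0.99). The libraries share their group and treatment, so these r values carry no p. Without descending control replicate 3 the values were 0.997, 0.993, 0.995, 0.995 and 0.99.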

How the data were processed

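RNA of 12 adventitial fibroblast cultures was measured, 3 libraries for each combination of site and treatment, grouped by the sample labels. Paired-end reads were mapped to mm10 by the authors, who deposited the unnormalized read counts of 54352 gene symbols. The submitters' processing notes name FastQC, STAR, featureCounts and DESeq2. Their versions, the gene annotation, the strand setting and the handling of reads matching several genes are not given in the sources used here. Shared exon sequence was therefore checked as the share of 50-base sequences that also occur in another gene (GENCODE vM21, GRCm38).

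The whole table was fitted in R 4.3.3 with edgeR 4.0.16 (TMM, filterByExpr with a minimum count of 10 and total of 15, two-sided quasi-likelihood F-test, Benjamini-Hochberg adjustment over all genes tested, call at adjusted p under 0.05), each comparison on the groups compared and the interaction on all 12 libraries. Values after ± are SE of log2 fold changes (size divided by the square root of F) unless marked SD, and intervals are 95% and use the fit's degrees of freedom. Levels are normalized CPM over the 12 libraries. A count of 3 was the floor. No pair of libraries held identical counts. Alternatives used DESeq2 1.42.0, limma 3.58.1 voom with sample quality weights, other scalings and filters, the replicate number as a block, one fit of all libraries, and each library left out. The fits were tested on simulated data, where at least 67% of 200 genes changed 2-fold and all of those at 10 CPM or more were recovered, with at most 5.99% false calls. The simulated means and spread were taken without descending control replicate 3, so these rates do not cover the fits that hold that library. Figures used Python 3.11.15 and matplotlib 3.10.9.

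The members and lists were chosen with earlier results of these data known. The genes named are the 10 members, the 3 with the highest mean level in each of the 5 lists, Gclc, Gclm, Nqo1, Srxn1, Slc7a11, Nfe2l2 and Cybb, the 5 genes most like Nox4, and any of a count of 5 or fewer. Genes listed beyond a count of 5 were named after their values were seen.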

Additional observations from a re-analysis of the deposited data

Results flagged for a closer look

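The interaction test called a different TGFβ response at the 2 sites for Nqo1 with all 12 libraries (-0.96, ascending minus descending on the log2 scale, adjusted p = 0.0182). Nqo1 rose in all 3 descending and all 3 ascending TGFβ libraries relative to the control libraries of their site.

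Without descending control replicate 3, the same test called 7 members and 7 of 43 list genes, beside 6.07% of 15013 genes higher and 7.40% lower. Of the list genes called, 5 are among the genes named by rule and the others were Prdx5 and Gsr. The values were 0.41 for Nox4, 0.49 for Gpx3 and 0.21 for Txnrd1, which had the more positive response in ascending fibroblasts. They were -0.27 for Cyba, -0.20 for Sod1, -0.73 for Sod3 and -0.19 for Gpx1. With all 12 libraries, where none of these members was called, the values were 0.96 for Nox4, 0.69 for Gpx3, 0.23 for Txnrd1, -0.57 for Cyba, -0.63 for Sod3 and -0.44 for Gpx1, and that of Sod1 had the opposite sign (0.03). Of those 5 list genes, Prdx6 was at -0.34, Txnip at -0.42, Sqstm1 at -0.27, Nqo1 at -0.88 and Slc7a11 at -0.76. Of these only Nqo1 was called with all 12 libraries.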

How the results depend on the processing

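The number of members called, with all genes called in brackets, was 6 (7767) for TGFβ in ascending, 2 (1115) in descending fibroblasts, 2 (374) between controls, 8 (4963) between TGFβ libraries and 0 (118) for the interaction. Leaving out 1 library gave, in the same order, 6 (7146 to 7427), 0 to 7 (213 to 7576), 1 to 4 (33 to 4631), 6 to 8 (4340 to 4656) and 0 to 7 (25 to 2022), with the upper ends for descending TGFβ, controls and interaction all without descending control replicate 3. One fit of the 12 libraries gave 2 (2338), 5 (3570), 2 (1545) and 3 (1106) for the first 4. DESeq2 gave 4 (2531) for descending TGFβ, 1151 genes between controls and 1 (497) for the interaction. Limma voom with quality weights gave 7 (7335) for descending TGFβ, 4 (4392) between controls and 5 (1979) for the interaction. No filter on low counts gave 1 member for descending TGFβ and 56 genes for the interaction. Without descending control replicate 3 and with DESeq2 the same 3 comparisons gave 7 (6582), 4 (3804) and 6 (1849). Upper-quartile scaling called 9 members in ascending fibroblasts, with Sod2, Sod3 and Gpx1 lower. The cause of these differences was not tested.

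The replicate numbers did not pair the samples: of 18 same-number pairs 1 had a correlation of deviations above 0.1 (-0.0357 to 0.115, against -0.113 to 0.101 for other pairs). With the replicate block the counts were 0 (95) for descending TGFβ, 0 (0) between controls, where the calls of Sod3 and Gpx3 were lost, and 50 genes for the interaction, and without descending control replicate 3 and with the block 7 (7168), 6 (4664) and 7 (2024). Cat (0.14, adjusted p = 0.0379) and Cyba were called between controls when that library was left out and the block added.

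Of 1388 values for single genes under the alternatives, 1124 kept direction and side of the threshold, 111 lost and 97 gained a call and 56 changed sign, none of a gene called with all libraries. In the order limma voom, then without descending control replicate 3 with DESeq2, with the block and alone, the sign changed in descending TGFβ for Sod1 (0.010, 0.021, 0.058, 0.015), Sod2 (0.034, 0.057, 0.078, 0.051) and Gpx4 (-0.081, -0.076, -0.084, -0.081). Between controls it changed for Sod1 (0.095, 0.092, 0.074, 0.090), Sod2 (0.090, 0.10, 0.11, 0.10), Cat (0.11, 0.13, 0.14, 0.13) and Gpx1 (-0.026, -0.032, -0.038, -0.033), and in the interaction for Sod1 (-0.20, -0.21, -0.21, -0.20), Sod2 (-0.11, -0.15, -0.15, -0.13), Cat (-0.090, -0.14, -0.15, -0.12) and Hmox1 (0.15, 0.090, 0.062, 0.11). Between TGFβ libraries Cat changed sign at -0.0013 with DESeq2's size factors, -0.0019 with DESeq2, -0.0047 with no filter and -0.0025 with the 12 libraries in one fit, and Hmox1 between controls at 0.089 with the replicate block. Over the fits that left out 1 library, the values were -0.34 to 0.015 for Sod1, -0.23 to 0.051 for Sod2 and -0.081 to 0.36 for Gpx4 in descending TGFβ, -0.27 to 0.090 for Sod1, -0.18 to 0.10 for Sod2, -1.01 to 0.13 for Cat, -0.033 to 0.37 for Gpx1 and -0.31 to 0.19 for Hmox1 between controls, -0.050 to 0.055 for Cat between TGFβ libraries, and -0.20 to 0.16 for Sod1, -0.13 to 0.15 for Sod2, -0.12 to 1.01 for Cat and -0.39 to 0.11 for Hmox1 in the interaction.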
